A study of Triticum aestivum with 6 samples.

Results

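Peroxidases and phenylalanine ammonia-lyase were followed in leaves of Triticum aestivum, the winter wheat breeding line SE15, taken from seedlings 7 days after germination. Genes were chosen from the authors' deposited tables by description, which had to read "Peroxidase" or "Phenylalanine ammonia-lyase" and belong to the gene named by the probe itself. This gave 10 genes among the 895 in either table, 9 peroxidases and 1 phenylalanine ammonia-lyase. In the study, 3 samples came from seeds that received ultrasound before germination (30 kHz, 70 W, 5 minutes, 4 cm from the head) and 3 from seeds that did not. Each group began with 100 seeds at a water content of 13.6%, and all germinated at 20 °C in the dark. The labels call the 3 samples of a group independent, but do not say whether they came from separate dishes or how many seedlings each held.

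Phenylalanine ammonia-lyase removes ammonia from phenylalanine and so opens the phenylpropanoid pathway, from which plants make lignin precursors, flavonoids and many defence compounds. Plant peroxidases are haem enzymes that use hydrogen peroxide to oxidise a wide range of phenolic substrates. Many of those secreted into the cell wall can couple lignin precursors or cross-link wall polymers, and others act in the turnover of hydrogen peroxide. The deposited descriptions give no peroxidase class and no place in the cell, so the role of each listed gene within this family is not known from the files.

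Each table holds the authors' statistics for one comparison between groups that its header calls K1 and US1, with no value per library. Depth, expression level and replicate spread are therefore unknown, and n could be at most 3 per group. The headers give neither the numerator nor the libraries that entered, so the sign is kept as deposited and genes are placed on a positive or a negative side of the log2 fold change. Because a gene had to pass in this comparison to be listed, all values of the 10 genes are descriptions with no test. In bulk tissue, fewer cells of a type and less RNA per cell cannot be told apart. The tissue label could not be checked, because the tables list only genes that passed the comparison and give no expression level. Of the markers chosen for leaf, 48 genes described as chlorophyll a-b binding protein, small chain of ribulose bisphosphate carboxylase or plastocyanin were in the authors' deposited DESeq2 table, all positive, and 26 were in the second table, all with negative scores. No gene of either table matched the keywords for storage proteins or other products of endosperm and embryo, but 73.1% of the genes in the DESeq2 table had no description of their own.

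The authors' deposited DESeq2 table held 7 of the 10 genes, 6 peroxidases and the phenylalanine ammonia-lyase gene. The phenylalanine ammonia-lyase gene and 4 peroxidases lay on the negative side, and 2 peroxidases lay on the positive side. The table lists 861 genes with a false discovery rate (FDR) under 0.05, which is 1.12% of the 76618 tests implied by its FDR values. By direction, 0.548% of tests were listed on the negative side (420 genes) and 0.576% on the positive side (441 genes). How many peroxidase genes were tested is not known, so the members cannot be read as a share of their family. The remaining 3 peroxidases were in the second table, and none of the 10 genes was in both. Of the 52 genes of the second table, 18 were also in the DESeq2 table.

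The phenylalanine ammonia-lyase gene, TraesCS1B02G048100, lies on chromosome 1B from 28305997 to 28308847 on the minus strand. In the authors' deposited table its log2 fold change was -7.14, with a standard error (SE) of 1.64 implied by the fold and its p-value. The implied 95% interval ran from -10.35 to -3.93, and the DESeq2 adjusted p was 0.00373. Its ratio between groups was 141-fold before shrinkage, and by the size of the fold it ranked 9 among the 861 genes. After the authors' shrinkage, which pulls imprecise folds towards 0, the log2 fold change was -1.07, a ratio of 2.10-fold, and the rank was 689. It kept 15.0% of its unshrunk log2 value, while the median over all listed genes was 74.6%. Values like its own were usual among the 60 listed genes with an absolute log2 fold change above 5. Their median SE was 1.63 and their median absolute shrunk value was 1.06. The nearest other gene of that table was 10.9 Mb away.

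A pair of neighbouring peroxidase genes lay further along the same chromosome. TraesCS1B02G355000 (584620318 to 584621811) and TraesCS1B02G355200 (584654149 to 584655558) both lie on the plus strand of 1B, 32337 bases apart. In the authors' deposited table the first had a log2 fold change of -5.66 (SE 1.56, interval -8.72 to -2.60, DESeq2 adjusted p = 0.0331). For the second, the same table gave -5.69 (SE 1.63, interval -8.89 to -2.50, DESeq2 adjusted p = 0.0457). The unshrunk values differed by 0.03, far less than either SE. Their shrunk values were -1.12 and -0.98, or 2.18-fold and 1.98-fold. No further gene within 1000 gene numbers on either side of the pair was in the authors' tables. Gene numbers rise in steps of 100, so this window holds few genes, and only 1.12% of tests were listed in the DESeq2 table. Genes of one family that sit side by side can share sequence, and the files do not say how reads matching both were counted, so the pair may not give 2 separate measurements.

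Peroxidase TraesCS3D02G406900 (3D, 520639173 to 520641929, minus strand) had the most negative fold of the family. The authors' deposited table gave it a log2 fold change of -6.71 (SE 1.73, interval -10.10 to -3.32, DESeq2 adjusted p = 0.0174). It was also the most strongly shrunk of the 7 genes, to -0.87, which is 13.0% of the unshrunk value. Its rank by size went from 18 before shrinkage to 831 after it.

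The last gene on the negative side, peroxidase TraesCS7D02G420500 (7D, 540366493 to 540370226, minus strand), was of another kind. Its log2 fold change in the authors' deposited table was -1.02, a ratio of 2.02-fold, with the smallest SE of the 7 genes, 0.29 (interval -1.59 to -0.44, DESeq2 adjusted p = 0.0481). Shrinkage left 86.5% of it, at -0.88. Thus the shrunk value of this precise, small change was next to that of TraesCS3D02G406900, although the unshrunk values differed by more than 5 log2 units. The nearest listed gene, TraesCS7D02G419000, has no description, lies 1.78 Mb away and had a log2 fold change of -1.76.

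**Figure D1:**
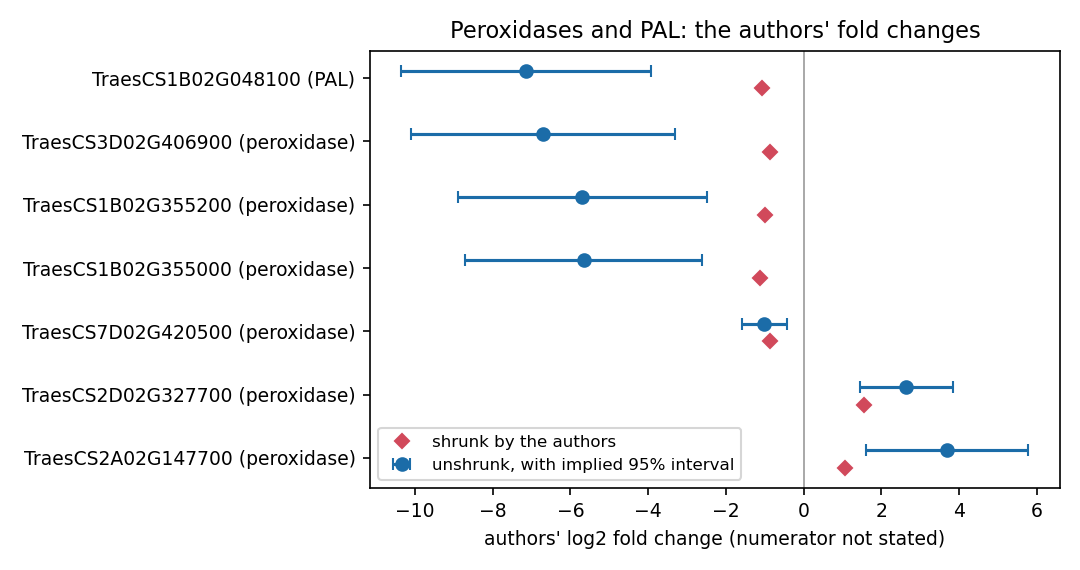
Log2 fold change (horizontal axis) of the 7 genes of the DESeq2 table (rows, with PAL for phenylalanine ammonia-lyase), as circles with the implied 95% interval and as diamonds after the authors' shrinkage. The 4 genes beyond -5 have the widest intervals, and after shrinkage the 5 negative genes lie between -1.12 and -0.87.

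On the positive side, peroxidase TraesCS2D02G327700 (2D, 420900155 to 420901165, minus strand) had a log2 fold change of 2.64 in the authors' deposited table. Its ratio was 6.21-fold, with an SE of 0.61, an interval from 1.44 to 3.83 and a DESeq2 adjusted p of 0.00433. Its shrunk value of 1.56, or 2.94-fold, was the largest of the 7 genes, and it ranked 145 of all listed genes by shrunk size. It and the phenylalanine ammonia-lyase gene were the 2 of the 7 genes with an FDR under 0.01, a bound that 361 listed genes met (41.9% of the table and 0.471% of the tests).

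The other positive gene, peroxidase TraesCS2A02G147700 (2A, 94157749 to 94158708, plus strand), had a log2 fold change of 3.69 (SE 1.07, interval 1.60 to 5.78) in the authors' deposited table. With a DESeq2 adjusted p of 0.0489 it was the gene of the 7 closest to the threshold of 0.05, followed by TraesCS7D02G420500 at 0.0481 and TraesCS1B02G355200 at 0.0457. An FDR above 0.04 was found in 3 of the 7 genes and in 144 of the 861 listed genes (16.7%). Genes just outside the threshold were not analysed here. The shrunk value of TraesCS2A02G147700 was 1.07, a ratio of 2.10-fold. Both positive peroxidases lie on group 2 chromosomes, but at distant positions, and the files do not pair genes of different subgenomes.

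Set beside the whole table, 6 of the 7 genes had both an unshrunk fold and an SE above the median (1.81 and 0.43), and TraesCS7D02G420500 had both below it. The 5 negative genes had a median log2 fold change of -5.69, while the median of all 420 negative genes was -1.71. After shrinkage the order was turned, with a median of -0.98 for the 5 genes and -1.24 for all negative genes. The 2 positive genes had a median of 3.16, beside 1.90 for all 441 positive genes, and shrunk medians of 1.32 and 1.27. Absolute log2 fold changes above 5 were found in 4 of the 7 genes and in 60 of the 861 listed genes (6.97%). The same 4 genes, phenylalanine ammonia-lyase and 3 peroxidases, were among the 47 listed genes with an SE above 1.5. Size and SE are tied by construction, since each SE was computed from a fold and a p-value, and listing required a small p-value. By shrunk size, 1 of the 7 genes was above the median of the table (1.26), TraesCS2D02G327700.

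**Figure D2:**
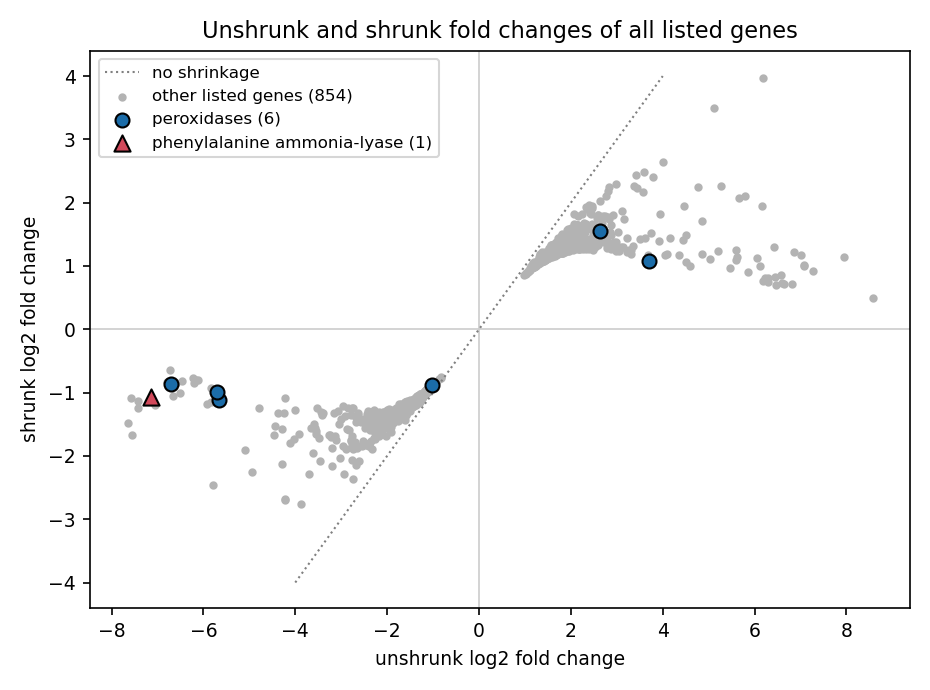
Unshrunk (horizontal) against shrunk (vertical) log2 fold change of all 861 genes of the DESeq2 table, with the 6 peroxidases as circles, phenylalanine ammonia-lyase as a triangle and a dotted line where both values are equal. The 4 members beyond -5 on the horizontal axis lie in the flat left arm near -1, and TraesCS7D02G420500 lies close to the line.

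The second of the authors' deposited tables held 3 further peroxidases, all with a negative Z-score of the difference. This table lists 52 genes, 0.0433% of the 120099 tests implied by its FDR values, and 49 of them had negative scores (0.0408%). Peroxidase TraesCS2B02G614000 (2B, 793128423 to 793130684, minus strand) had a score of -4.85 and an FDR of 0.00672 in the authors' deposited table. TraesCS6D02G054900 (6D, 25914891 to 25916529, plus strand) had -4.69, and TraesCS6B02G063900 (6B, 42392965 to 42394544, plus strand) had -4.68, both with a deposited FDR of 0.0103. The 3 scores lay close together, at ranks 11, 16 and 18 by size among the 52 genes, and were somewhat larger than the median negative score of -4.50. No fold change is given in this table, so the size of the 3 differences on a log2 scale is not known.

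The signs of the 2 tables run in opposite directions. All 18 genes found in both tables had a negative score where the log2 fold change was positive, or the reverse. Only 3 genes of the second table had positive scores, so most of the 18 paired a negative score with a positive fold. If opposite signs also hold for genes in the second table alone, the 3 peroxidases there would lie with the 2 positive peroxidases of the DESeq2 table. Read in that way, 5 peroxidases would be on the positive side, and 4 peroxidases and phenylalanine ammonia-lyase on the negative side. The authors' deposited DESeq2 table does not list these 3 genes, and the tests behind the tables differ, so their values cannot be set on one scale.

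**Figure D3:**
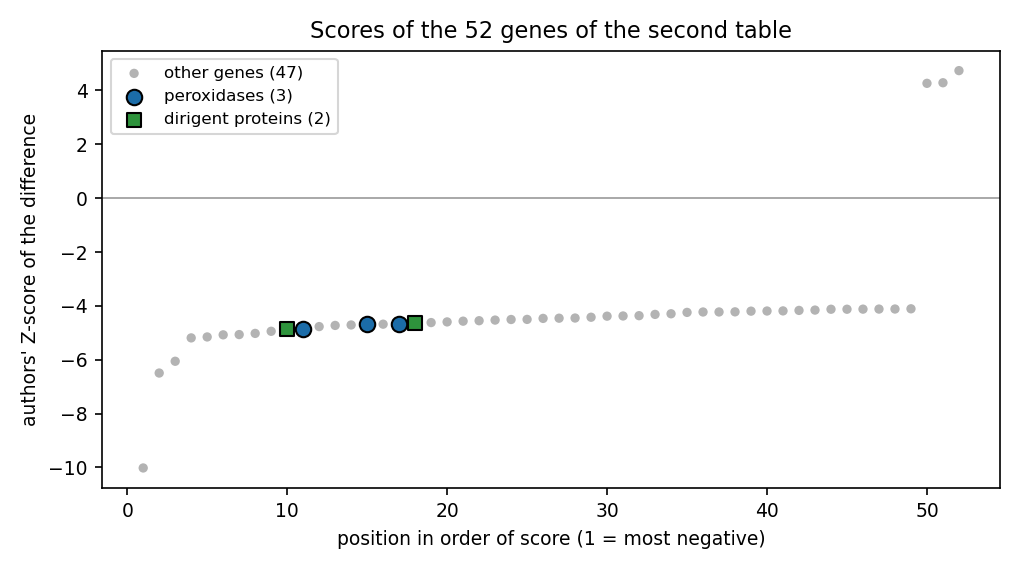
Authors' Z-score of the difference (vertical axis) for the 52 genes of the second table in order of score (horizontal axis), with 3 peroxidases as large circles and 2 dirigent proteins as squares. The peroxidases lie between -4.85 and -4.68 within the long flat run of negative scores.

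Over both tables the 10 genes came from 8 chromosomes. Subgenome A held 1 of them, subgenome B 5 and subgenome D 4. Their probes span 960 to 3734 bases, 5 on each strand, and no other listed probe overlapped any of them. The feature type of all their probes is gene, without exon or UTR detail, and the genome build is not stated in the labels or headers. The 2 peroxidases on group 6 chromosomes lie on the same strand, have spans of 1580 and 1639 bases and had nearly equal scores, but whether they are counterparts in the B and D subgenomes is not stated in the files.

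Other genes of the phenylpropanoid and lignin list were few. Apart from phenylalanine ammonia-lyase, the authors' deposited DESeq2 table held 2 matching genes, both described as dirigent protein, a family whose members can steer the coupling of lignin-type monomers. Both were positive, TraesCS2A02G034400 at 2.08 (SE 0.43, DESeq2 adjusted p = 0.000660) and TraesCS5B02G172000 at 1.67 (SE 0.43, DESeq2 adjusted p = 0.0195). The second table held 2 more dirigent genes, TraesCS7A02G555100 with a score of -4.87 and TraesCS2B02G100800 with -4.64, next to the scores of the 3 peroxidases. Negative scores were the rule in that table, with 49 of its 52 genes, so the sign of these 2 sets them apart from few others. No listed gene matched the keywords for later steps of the pathway, such as the cinnamate, cinnamoyl, coumarate and caffeoyl enzymes, chalcone enzymes or laccases. Keywords were sought only in a gene's own description, which 73.1% of the genes in the DESeq2 table lacked, so such genes may be listed unrecognised.

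The hydrogen peroxide and redox list held 5 genes in the authors' deposited DESeq2 table, 3 positive and 2 negative. Amine oxidases release hydrogen peroxide as they oxidise amines, and TraesCS4B02G282700 of that description had a log2 fold change of 3.10 (SE 0.85). Both genes described by a thioredoxin domain were positive, TraesCS6A02G372100 at 1.68 (SE 0.43) and TraesCS6B02G409800 at 1.74 (SE 0.46). The negative genes were both similar to a germin-like protein, a family of secreted proteins some of which release hydrogen peroxide. TraesCS5A02G453200 was at -3.14 (SE 0.68) and TraesCS5D02G464000 at -2.92 (SE 0.77) in the authors' deposited table. The second table held none of this list, and no listed gene was described as catalase, superoxide dismutase, ascorbate peroxidase or a glutathione enzyme. The same limit applies, since genes without a description of their own could not match.

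The cell wall list was evenly divided in the authors' deposited DESeq2 table, with 3 genes on each side, and the second table held none. Both xyloglucan endotransglucosylase/hydrolases, which cut and rejoin wall polymers, were negative, TraesCS4A02G172600 at -1.38 (SE 0.29) and TraesCS7A02G426100 at -1.28 (SE 0.30). The 2 pectin acetylesterases lay on opposite sides, TraesCS3A02G533600 at 1.34 (SE 0.36) and TraesCS3D02G538500 at -1.53 (SE 0.44). A hydroxyproline-rich glycoprotein gene, TraesCS1D02G422700, was at 1.62 (SE 0.38), and the fasciclin-like gene TraesCS1A02G396800 was at 1.59 (SE 0.46). None of the 13 genes of these 3 lists in that table reached the unshrunk size of the 4 most negative members, and their SE values, from 0.29 to 0.85, were also smaller.

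**Figure D4:**
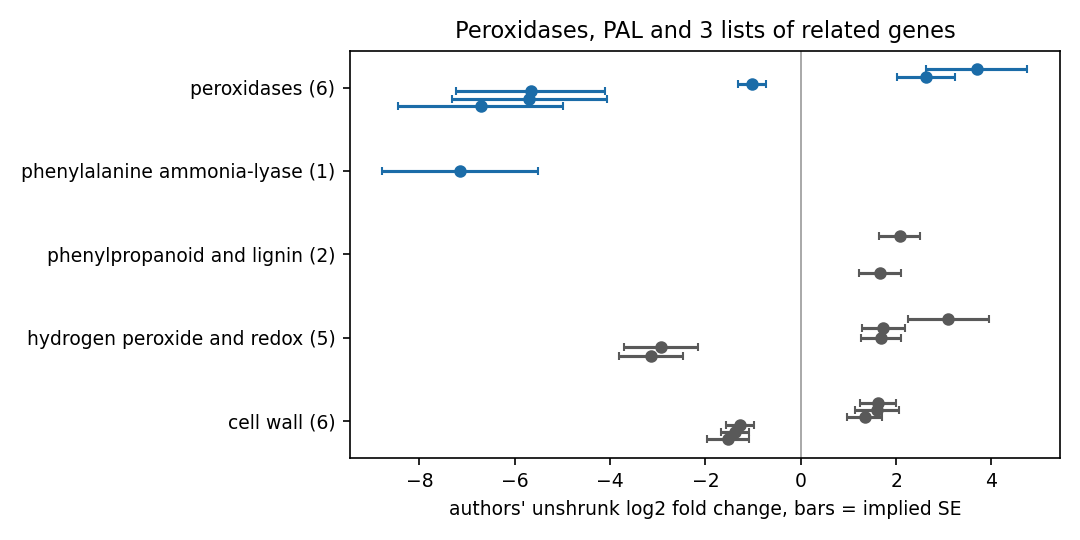
Unshrunk log2 fold change (horizontal axis) with the implied SE as bars for the peroxidases, phenylalanine ammonia-lyase and the listed genes of 3 related lists in the DESeq2 table, with the number of genes in brackets. The genes of the 3 lists lie between -3.14 and 3.10, while 4 members lie beyond -5.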

How the data were processed

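Messenger RNA was enriched with poly-T beads and sequenced on an Illumina instrument, per the labels' protocols. The submitters' processing notes name the aligner STAR 2.7.10a, Trim Galore 0.6.7, FastQC 0.11.9 and, with no version, the authors' DESeq2, without role or order. A genome build is not given in the labels or headers. Per the file headers, the authors deposited a DESeq2 p-value, an FDR, a log2 fold change and a shrunk log2 fold change per probe in one table, and a p-value, an FDR and a Z-score in the other. How the authors made the deposited score is not stated in the file headers. Its p-values equal a one-sided normal tail probability.

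Samples were grouped by title, but no value per library was analysed, so the planned edgeR or limma test was not run and depth sets no interval here. The implied SE divides the size of the log2 fold change by the normal deviate of its p-value, taken as that of a two-sided Wald test. Derived instead from the shrinkage, with a constant prior, the SE of the 7 genes was 0.952 to 1.11 times as large. That constant was the median over all listed genes and was computed from their implied SE, so the scale was not checked independently. Its median was 2.13 for the 52 listed genes with an SE above 1.3, beside 1.83 for all. The number of tests is the commonest value of FDR times rank over p. Calculations used Python 3.11.15, pandas 2.3.3, numpy 2.4.6 and scipy 1.17.1. Only the implied SE, the number of tests and the Benjamini-Hochberg adjustment were checked on simulated data. Those data were made with the same formulas, so the check covers the code and not the assumptions. The members and lists were chosen with earlier results of these data known. All members are named, and up to 6 genes per related list and table by lowest FDR. The RefSeq gene table matched 0 of the members and was not used.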

Additional observations from a re-analysis of the deposited data

How the results depend on the processing

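The alternatives filter, regroup or shrink the deposited values and so could not change a direction. With an FDR under 0.01 the DESeq2 table kept 2 of the 7 genes, 1 on each side, and 361 of its 861 genes. An absolute shrunk log2 fold change of at least 1 was met by 4 of the 7, 2 negative and 2 positive. The smallest of these 4 ranked 693 of the 861 by shrunk size, and the next member ranked 782. At least 693 and fewer than 782 listed genes therefore met that bound. With shrunk values the median became -0.98 on the negative side and 1.32 on the positive side, and 6 of the 7 single genes moved by more than their implied SE. How many of all listed genes moved that far was not counted. Counting neighbouring genes once gave 6 genes, and matching by description alone or by any peroxidase or ammonia-lyase wording gave 7. Of the 3 peroxidases of the second table, 1 had a deposited FDR under 0.01. All 52 deposited FDR values of that table equal a running maximum down the list (within 1 part in 1000), whereas standard Benjamini-Hochberg adjustment takes a running minimum from its end. With the standard form, chosen after seeing the data, all 3 peroxidases were under 0.01 (adjusted p = 0.00672 and, for the other two, 0.00972), as were 18 genes of the table in place of 14. With p-values doubled to be two-sided, also chosen afterwards, 33 of the 52 genes stayed under 0.05, among them all 3 peroxidases. No paired analysis was possible because no values per library were analysed, and leaving out replicates was not run for the same reason. Depth could not be weighed.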
